A study of Homo sapiens with 2 samples.

Results

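The genes described here are 10 targets of the transcription factor NRF2 that make, recycle or spend the thiols glutathione and thioredoxin: GCLC, GCLM, SLC7A11, GSR, GPX2, TXN, TXNRD1, SRXN1, NQO1 and HMOX1. They were chosen by symbol from 36601 gene entries, together with the 35 of 187920 ATAC peaks that lie within 2 kb of their entries. All 10 genes and 29 of the 35 peaks passed the filters on low counts (at least 20 UMIs for a gene and at least 100 counts for a peak, over all barcodes used), and those filters kept 19565 genes and 99800 peaks.

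The data came from 1 capture of 5 human lung adenocarcinoma cell lines, A549, H838, H1975, H2228 and HCC827, with 1 culture of each line. The cultures, with no agent added, were grown apart to near confluence, frozen, mixed in equal parts and run as a joint RNA and ATAC experiment in which each droplet barcode carries both readouts. The 80% fraction of the capture was analysed, as 1 RNA and 1 ATAC library, and the 20% fraction was not analysed here. Barcodes carry no line label, so the lines were told apart by clustering, and with 1 culture per line no test, standard error or p-value was possible. Every interval below is an exact Poisson or binomial 95% interval that covers counting error only.

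NRF2, encoded by NFE2L2, is held at a low level by KEAP1, which presents it to the CUL3 ubiquitin ligase for degradation. When KEAP1 is modified by electrophiles or oxidants, or is lost by mutation, NRF2 accumulates, pairs with a small MAF protein and binds antioxidant response elements near its targets. Its targets supply cysteine and glutathione, regenerate both thiol systems from NADPH and detoxify quinones and heme. KEAP1 mutations are common in lung adenocarcinoma, and A549 and H838 are known to carry one.

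Barcodes were grouped by their ATAC profile with the 54 peaks within 10 kb of the 10 genes left out, so that no gene described here and none of its peaks took part in the grouping. The 5 clusters held 728, 465, 580, 415 and 230 barcodes, 4375871, 8977080, 5517099, 5713100 and 3128595 UMIs and between 6845837 and 22346320 peak counts. The first had all 7 A549 markers at their highest level and the fourth had all 6 HCC827 markers at theirs, so they are called A549-like and HCC827-like. The second, called LCN2-high, had LCN2 at 10900 CPM (counts per 1000000 counts of a cluster) against 245 to 620 elsewhere, and all 5 H2228 markers were highest there. ALK, the defining gene of H2228, did not separate it from the HCC827-like cluster, at 17.3 against 16.8 CPM. The 5 H1975 markers were split over 3 clusters, and none was used for H838, since those known here are NRF2 targets. The third and the last are therefore called SLC30A8-high and DHRS2-high after a leading gene, and which cluster is H838, H1975 or H2228 was not settled. Of markers of other cells, 4 of 6 immune, 2 of 5 endothelial, 3 of 5 fibroblast and 0 of 4 red cell genes were measured. The summed immune level was 4.35 to 16.9 CPM over the clusters, with PTPRC at 6.91 CPM at most. The summed endothelial level was 2.74 to 95.9 CPM and the fibroblast level 5.26 to 120 CPM, both highest in the LCN2-high cluster through PECAM1 (94.7 CPM) and COL1A1 (115 CPM). The endothelial genes CDH5 and VWF had at most 4 and 3 UMIs in any cluster, and the fibroblast gene DCN had 0.

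Barcodes that held the peaks of more than one line stood apart and were left out. They numbered 323 of the 2741 barcodes that passed the quality limits, had a median of 41229 UMIs against 7703 for the other 2418, and held 39.4% of all UMIs. In the LCN2-high cluster they were 207 barcodes with 63.1% of its UMIs, so values with them kept are given where they change a call or move a level by over 1.5 times. A further property that moved with the clusters was the share of mitochondrial UMIs in a barcode, with medians of 0.42% in the A549-like, 8.73% in the LCN2-high, 0.424% in the SLC30A8-high, 13.7% in the HCC827-like and 3.17% in the DHRS2-high cluster. Values within barcodes under 2% and with at least 2% mitochondrial UMIs are given where they change a call.

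The 10 genes fell into 2 clusters with high levels, 1 with a mixed pattern and 2 with low levels. Against the mean of the other 4 clusters, on CPM plus 1, a gene is called higher or lower from 2-fold. In the A549-like cluster 5 of 10 were higher (GCLC, SLC7A11, GSR, GPX2 and TXNRD1) and 0 lower, where 12.3% of all measured genes were higher and 18.2% lower. In the LCN2-high cluster 3 were higher (TXNRD1, SRXN1 and NQO1) and HMOX1 was lower, against 9.82% and 19.7% of all genes. In the SLC30A8-high cluster only GCLM was higher, against 12.4% of all genes, and GCLC, SLC7A11 and GPX2 were lower, against 20.8%. In the HCC827-like cluster 0 were higher and 9 lower, and TXN was the exception; over all genes the shares were 6.83% and 19.6%. In the DHRS2-high cluster HMOX1 alone was higher and 8 were lower, against 7.53% and 16.7%. The median log2 ratio of the 10 genes was 1.04, 0.83, -0.75, -2.03 and -1.86 in the 5 clusters in that order, beside -0.04, -0.26, -0.06, -0.34 and -0.13 for all genes. From the highest to the lowest cluster, 9 of the 10 genes spanned at least 4-fold, and TXN did not; 36.4% of all measured genes spanned as much. The counts of the high clusters depend on the base: against the median of the other 4 clusters, 9 genes were higher in the A549-like and 7 in the LCN2-high cluster, and with TMM scaling 4 and 5. The shares of all genes given above belong to the mean as base and to CPM, so they do not match these counts or those that follow. With mixed barcodes kept, 6 were higher in the A549-like cluster, where NQO1 passed the limit, and SRXN1 alone was higher in the LCN2-high cluster. The lower genes then numbered 0 in the LCN2-high, 2 in the SLC30A8-high, 9 in the HCC827-like and 6 in the DHRS2-high cluster. The 9 lower genes of the HCC827-like cluster became 8 with TMM scaling or the median as base (GCLC lost), 8 in barcodes at or below their median UMI count (HMOX1 lost) and 7 in barcodes under 2% mitochondrial UMIs (GSR and HMOX1 lost).

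**Figure D1:**
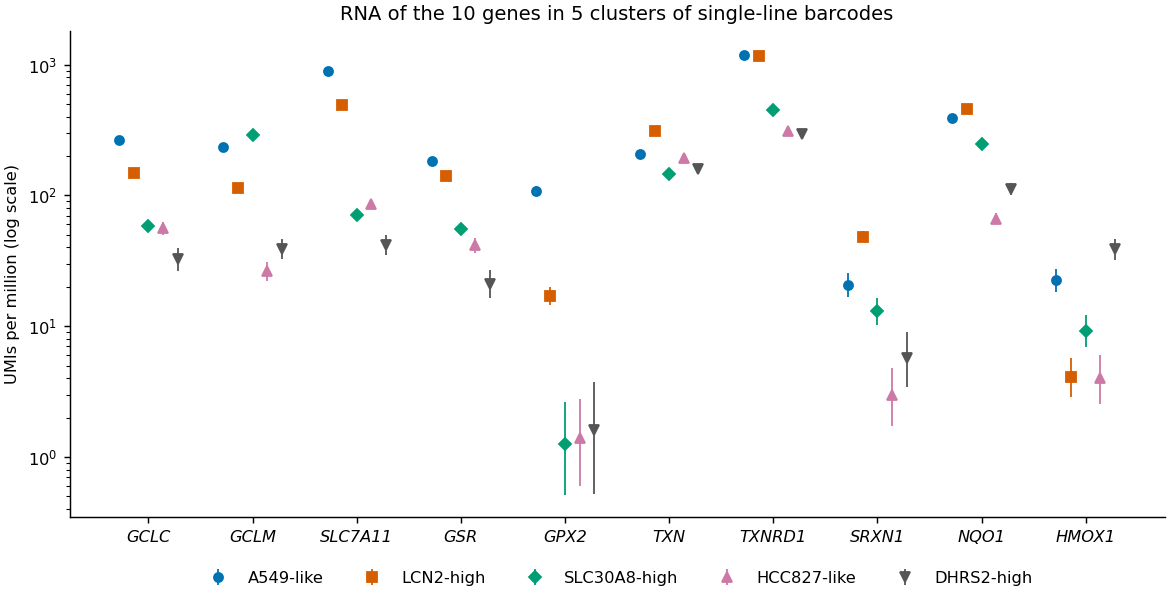
Level of each of the 10 genes in the 5 clusters, in CPM on a log axis; points are cluster sums and bars exact Poisson 95% intervals of counting error. SLC7A11 runs from 888 CPM in the A549-like to 41.9 CPM in the DHRS2-high cluster, while TXN stays between 146 and 311 CPM.

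Binding of NRF2 is known to need the antioxidant response element, whose core TGACNNNGC (N is any base) was searched on both strands in RefSeq promoter windows of 300 bases, 250 before to 50 after a start site. Windows were found for 7 of the 10 genes, 8 in all, since TXNRD1 has 2 start sites in the table. Cores were found in 3 of the 7 genes, GCLM, GPX2 and TXNRD1, the last in each of its 2 windows. Of 35116 windows of all genes, 13.3% hold one. That share counts windows and not genes, and the 10 genes were chosen as NRF2 targets, so no surplus is read from it. The start sites of all 8 windows lie in an ATAC peak. The 250 bases upstream are shown only where the window holds a core, 5′ to 3′ on the strand of the gene. They are from RefSeq on GRCh38.p14, with the core (either strand) in capitals:
GCLM, chr1:93909431-93909680, minus strand: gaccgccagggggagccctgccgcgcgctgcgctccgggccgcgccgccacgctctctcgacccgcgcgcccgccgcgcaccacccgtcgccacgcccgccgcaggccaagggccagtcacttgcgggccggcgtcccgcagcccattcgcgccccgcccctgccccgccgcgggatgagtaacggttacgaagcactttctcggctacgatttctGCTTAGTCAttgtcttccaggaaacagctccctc
GPX2, chr14:64942746-64942995, minus strand: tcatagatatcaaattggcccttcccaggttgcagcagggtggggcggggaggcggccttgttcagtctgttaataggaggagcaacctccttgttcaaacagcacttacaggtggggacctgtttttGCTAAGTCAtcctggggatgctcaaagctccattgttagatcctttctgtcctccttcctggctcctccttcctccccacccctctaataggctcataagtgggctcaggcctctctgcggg
TXNRD1 upstream start, chr12:104215529-104215778, plus strand: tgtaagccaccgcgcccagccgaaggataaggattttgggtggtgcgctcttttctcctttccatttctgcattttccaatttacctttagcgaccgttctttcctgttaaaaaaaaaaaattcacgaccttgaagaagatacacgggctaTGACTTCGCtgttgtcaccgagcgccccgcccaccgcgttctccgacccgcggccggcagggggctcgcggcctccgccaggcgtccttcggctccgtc
TXNRD1 downstream start, chr12:104286782-104287031, plus strand: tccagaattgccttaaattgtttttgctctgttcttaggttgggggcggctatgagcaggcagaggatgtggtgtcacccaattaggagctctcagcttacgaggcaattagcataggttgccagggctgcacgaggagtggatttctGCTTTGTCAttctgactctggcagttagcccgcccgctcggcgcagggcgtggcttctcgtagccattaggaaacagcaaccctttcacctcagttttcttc
The core reads TGACTAAGC 34 bases before the GCLM start and TGACTTAGC 122 bases before the GPX2 start. At the upstream TXNRD1 start it reads TGACTTCGC 99 bases before, and a further core, TGACGGAGC, crosses the start itself. At the downstream TXNRD1 start it reads TGACAAAGC 102 bases before. The windows of GCLC, TXN, SRXN1 and NQO1 hold no such letters, which says only that the core is not in these 300 bases. A match of letters is a description and does not show binding. None of the 8 windows holds the AP-1 element TGANTCA, the cAMP response element TGACGTCA or the C/EBP-ATF element TGATGNAA, which were in 7.71%, 1.85% and 3.62% of all windows.

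Glutathione synthesis starts with glutamate-cysteine ligase, whose catalytic subunit is GCLC. Its level was 264 CPM (249 to 280) in the A549-like, 150 (142 to 158) in the LCN2-high, 58.4 (52.2 to 65.1) in the SLC30A8-high, 56.2 (50.2 to 62.7) in the HCC827-like and 32.6 (26.6 to 39.6) in the DHRS2-high cluster. The A549-like cluster stood 8.10-fold over the DHRS2-high one, and the intervals of the SLC30A8-high and HCC827-like clusters overlapped. The log2 ratio in the SLC30A8-high cluster was -0.99 with mixed barcodes kept, beside -1.09 without them.

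GCLM is the modifier subunit, which raises the affinity of the ligase for its substrate. Its levels were 234 CPM (220 to 249), 114 (107 to 122), 289 (275 to 304), 26.3 (22.2 to 30.8) and 39.0 (32.4 to 46.6) in the same order of clusters. It was thus highest in the SLC30A8-high cluster, 1.24-fold over the A549-like and 11.02-fold over the HCC827-like cluster, and no neighbouring intervals overlapped. Its log2 ratio in the A549-like cluster was 0.99, just under the 2-fold limit, and it was 1.01 in barcodes with at least 2% mitochondrial UMIs.

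The balance of the 2 subunits differed between clusters. There were 0.885 GCLM UMIs per GCLC UMI in the A549-like cluster (0.813 to 0.963) and 0.764 (0.704 to 0.829) in the LCN2-high cluster. In the SLC30A8-high cluster the ratio was 4.96 (4.39 to 5.60), from 1596 GCLM and 322 GCLC UMIs. It was 0.467 (0.382 to 0.569) in the HCC827-like and 1.20 (0.912 to 1.57) in the DHRS2-high cluster. The ratio in the SLC30A8-high cluster lay outside the intervals of the other 4, and because the lengths of the 2 transcripts enter it, only its differences between clusters can be read.

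The GCLM peak over the element shown above, chr1:93909133-93909988, had 48.5 CPM in the A549-like, 32.8 in the LCN2-high, 129 in the SLC30A8-high, 70.5 in the HCC827-like and 31.7 in the DHRS2-high cluster. It was highest where the RNA was highest. The region from 2 kb to 500 kb away moved the same way, with a log2 ratio of 0.99 for its summed peaks beside 1.47 for the peak itself. In the HCC827-like cluster the peak was the second highest while the RNA was the lowest. The log2 ratio there was 0.22 for the GCLM peak and 0.60 for the region around it. The highest-count GCLC peak, chr6:53547679-53548589, spanned 1.69-fold, from 32.6 CPM in the DHRS2-high to 55.8 CPM in the SLC30A8-high cluster. The peak over the RefSeq start site of GCLC, chr6:53544542-53545409, had 39.5, 19.9, 46.3, 29.3 and 24.0 CPM.

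SLC7A11 is the cystine importer, the light chain of system xc-, that brings in the cysteine for glutathione. It had 888 CPM (861 to 917), 488 (473 to 502), 70.5 (63.7 to 77.9), 85.8 (78.3 to 93.7) and 41.9 (35.0 to 49.7). The A549-like cluster was 21.2-fold over the DHRS2-high one, the widest span of the 10 after GPX2, and no neighbouring intervals overlapped. Keeping mixed barcodes, it was 362 CPM in the LCN2-high and 76.3 CPM in the DHRS2-high cluster, beside 76.4 CPM in the SLC30A8-high one, and the fold from the A549-like to the DHRS2-high cluster was 11.45. Barcodes of the LCN2-high cluster had 564 CPM under 2% mitochondrial UMIs and 485 CPM, past the 2-fold limit, at or above it. Its start-site peak, chr4:138241992-138242852, was flatter, from 16.6 CPM in the SLC30A8-high to 26.3 CPM in the A549-like cluster.

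Glutathione reductase, GSR, returns oxidised glutathione to its reduced form with NADPH. Its levels were 183 CPM (171 to 196), 140 (132 to 148), 55.5 (49.42 to 62.04), 41.5 (36.4 to 47.1) and 21.1 (16.3 to 26.8), in the same order of clusters as GCLC. The A549-like cluster was 8.69-fold over the DHRS2-high one. In barcodes under 2% mitochondrial UMIs it was 59.9 CPM in the HCC827-like cluster and no longer lower there, and in barcodes with at least 2% it passed the limit in the LCN2-high cluster, with a log2 ratio of 1.08. The single GSR peak had 70.0, 46.8, 26.3, 34.9 and 31.1 CPM, so it too was highest in the A549-like cluster, but lowest in the SLC30A8-high one.

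GPX2, a glutathione peroxidase of epithelial cells, was the gene most limited to 1 cluster. Its levels were 109 CPM (99.2 to 119) in the A549-like and 17.0 (14.5 to 20.0) in the LCN2-high cluster. The other 3 clusters had 7, 8 and 5 UMIs, or 1.27 (0.510 to 2.61), 1.40 (0.605 to 2.76) and 1.598 CPM (0.519 to 3.73), and their intervals overlapped. The A549-like cluster was 6.38-fold over the LCN2-high one. In LCN2-high barcodes under 2% mitochondrial UMIs it was 6.45 CPM and called lower. Those barcodes held only 310266 UMIs, so this call rests on very few GPX2 UMIs. The DHRS2-high cluster had 3.32 CPM with mixed barcodes kept. Markers of a single cluster were also found at low levels elsewhere: the A549 marker ALDH1A1 stood at 0.176% to 1.45% of its highest level in the other clusters, and LCN2 at 2.25% to 5.69%. GPX2 stood at 1.17%, 1.29% and 1.47% of its highest level in the SLC30A8-high, HCC827-like and DHRS2-high clusters, and at 15.7% in the LCN2-high cluster. In the same 3 low clusters ALDH1A1 stood at 0.49%, 0.176% and 1.45%, and LCN2 at 3.20%, 5.69% and 2.25%. GPX2 there was thus above ALDH1A1 and below LCN2, and whether its few UMIs are background was not settled.

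The GPX2 peak, chr14:64942417-64943321, holds the element shown above and followed the RNA. It had 35.2 CPM (31.7 to 39.0) in the A549-like, 8.28 (6.68 to 10.2) in the LCN2-high, 1.79 (0.876 to 3.24) in the SLC30A8-high and 1.33 (0.432 to 3.10) in the HCC827-like cluster. In the DHRS2-high cluster it had 0 counts, and the upper end of the interval there was 1.08 CPM. The summed peaks 2 kb to 500 kb away did not share this pattern, with a log2 ratio of -0.43 in the A549-like cluster beside 3.23 for the peak.

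Thioredoxin, TXN, reduces protein disulfides and was the flattest of the 10. It had 209 CPM (196 to 223), 311 (299 to 323), 146 (136 to 157), 193 (182 to 205) and 159 (146 to 174). The LCN2-high cluster was 2.12-fold over the SLC30A8-high one, and the intervals of the A549-like and HCC827-like clusters overlapped, as did those of the DHRS2-high and SLC30A8-high clusters. TXN was called higher or lower in 0 of the 5 clusters. Its start-site peak, chr9:110256279-110257194, had 95.02, 80.5, 65.2, 43.0 and 45.0 CPM, an order that the RNA did not share.

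TXNRD1, the selenoprotein that reduces thioredoxin with NADPH, had 1186 CPM (1154 to 1219), 1165 (1143 to 1188), 453 (436 to 471), 313 (299 to 328) and 294 (275 to 313). The A549-like and LCN2-high clusters overlapped, as did the HCC827-like and DHRS2-high ones, so 3 levels were apart by counting error alone. Over barcodes thinned to 3000 UMIs, the variance of TXNRD1 was 2.31, 1.73, 1.17, 1.76 and 2.09 times its mean. Barcodes thus varied by more than counting error, which the intervals do not cover. The highest cluster was 4.04-fold over the lowest. In the LCN2-high cluster TXNRD1 was 849 CPM with mixed barcodes kept and 967 in barcodes under 2% mitochondrial UMIs.

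SRXN1, sulfiredoxin, repairs peroxiredoxins that peroxide has over-oxidised. It had 20.8 CPM (16.7 to 25.5), 48.5 (44.0 to 53.2), 13.1 (10.2 to 16.4), 2.98 (1.73 to 4.76) and 5.75 (3.41 to 9.09), the last 2 from 17 and 18 UMIs with overlapping intervals. The LCN2-high cluster was 2.33-fold over the A549-like and 16.3-fold over the HCC827-like cluster. With mixed barcodes kept it was 30.7 CPM in the LCN2-high cluster and 8.06 CPM in the DHRS2-high cluster, no longer lower there (log2 ratio -0.98). The SRXN1 peak, chr20:652966-653854, was lowest in the LCN2-high cluster, at 42.4 CPM, and 52.3 to 89.0 CPM in the others. In the LCN2-high cluster the log2 ratio was -0.78 for the peak and -0.51 for the summed peaks 2 kb to 500 kb away.

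NQO1 reduces quinones by passing them electrons in pairs and is a customary readout of NRF2. Its levels were 391 CPM (372 to 410), 454 (440 to 468), 249 (236 to 263), 66.5 (59.99 to 73.6) and 113 (101 to 125), with no overlap between neighbours. The LCN2-high cluster was 6.83-fold over the HCC827-like one, and 308 CPM with mixed barcodes kept, under the 391 CPM of the A549-like cluster. The DHRS2-high cluster then had 128 CPM and a log2 ratio of -0.997 (-1.36 without them), which just missed the limit. The NQO1 peak, chr16:69726225-69727089, was highest in the SLC30A8-high cluster instead, at 167 CPM, against 94.2, 75.6, 52.8 and 66.9 CPM in the A549-like, LCN2-high, HCC827-like and DHRS2-high clusters. The log2 ratio in the SLC30A8-high cluster was 1.19 for the peak and 0.81 for the region around it.

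The level of the 3 genes called higher in the LCN2-high cluster moved with the mitochondrial share. In barcodes under 2%, which were 48 of its 465 barcodes with 310266 UMIs, 0 of the 10 genes were higher. There NQO1 was 216 CPM, below the 372 CPM of the A549-like and the 224 CPM of the SLC30A8-high cluster under the same limit. SRXN1 was 9.67 CPM there, from very few UMIs. Under this limit NQO1 and SRXN1 were called higher in the A549-like cluster, which then had 7 higher genes. In barcodes with at least 2%, 5 genes were higher, with NQO1 at 463 and SRXN1 at 49.9 CPM. The part of the mitochondrial share in these levels was not tested further. In the A549-like cluster NQO1 was 372 CPM under the limit and 443 CPM above it, and SLC7A11 was 939 and 747 CPM.

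HMOX1, heme oxygenase, breaks down heme and is repressed by BACH1 as well as activated by NRF2. It was the only one of the 10 that was highest in the DHRS2-high cluster. Its levels were 22.4 CPM (18.2 to 27.3), 4.12 (2.90 to 5.68), 9.24 (6.88 to 12.2), 4.03 (2.55 to 6.04) and 38.7 (32.1 to 46.2). The DHRS2-high cluster, in which 8 of the 10 genes were lower, stood 1.73-fold over the A549-like and 9.61-fold over the HCC827-like cluster. HMOX1 was carried by 330 UMIs in all, the fewest of the 10 genes. In DHRS2-high barcodes at or below their median UMI count it was 17.1 CPM, under the 2-fold limit. A549-like barcodes chosen the same way had a higher level, 29.2 CPM. The DHRS2-high value rests on a small part of the 121 HMOX1 UMIs of that cluster. No interval was computed for it, so the order of these clusters in such barcodes was not settled. In HCC827-like barcodes under 2% mitochondrial UMIs HMOX1 was 14.4 CPM, from a part of the 23 HMOX1 UMIs of that cluster. With mixed barcodes kept, the LCN2-high cluster had 14.7 CPM. The HMOX1 peak, chr22:35380644-35381534, was nearly flat, at 22.3, 14.7, 24.6, 20.5 and 22.1 CPM.

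Across the 10 genes the highest-count peak was highest in the same cluster as the RNA in 5 (GCLM, SLC7A11, GSR, GPX2 and TXNRD1), and it spanned at least 4-fold only for GPX2. Of all measured peaks, 46.2% spanned at least 4-fold. That share covers peaks down to 100 counts and peaks far from genes, so it is not a share of like peaks. GCLM came next with 3.98-fold, then NQO1 with 3.12-fold and GSR with 2.60-fold. The RNA of SRXN1 spanned 12.4-fold on CPM plus 1 while its peak spanned 2.07-fold, and for GCLC the spans were 7.89-fold and 1.69-fold.

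**Figure D2:**
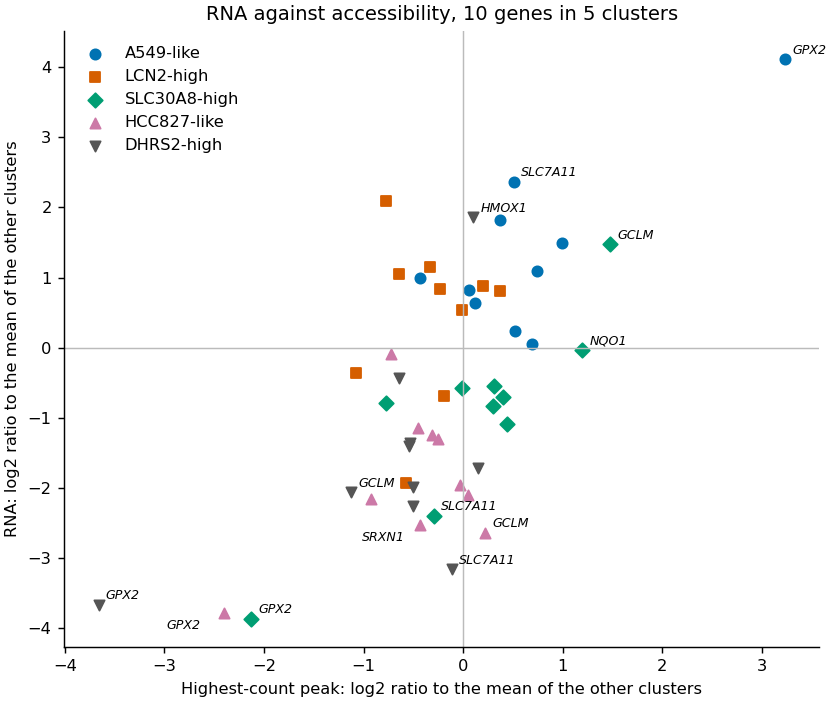
Log2 ratio of RNA level (vertical) against that of the highest-count ATAC peak (horizontal), each against the mean of the other 4 clusters on CPM plus 1, for each gene in each cluster; points are single cluster sums with no replicate. GPX2 spreads along both axes, while SRXN1 in the LCN2-high cluster combines a higher RNA level with a peak at -0.78.

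Counted over all peaks within 2 kb, 8 of 29 were higher and 1 lower in the A549-like cluster, where 9.36% of all measured peaks were higher and 31.5% lower. In the LCN2-high cluster 1 was higher and 4 lower, against 15.3% and 14.3%. In the SLC30A8-high cluster 4 were higher and 9 lower, against 8.78% and 27.8%, and in the HCC827-like cluster 3 were higher and 5 lower, against 10.2% and 17.9%. In the DHRS2-high cluster 0 were higher and 8 lower, against 11.7% and 17.4%. These counts rest mostly on 1 gene, since TXNRD1 has 18 of the 35 peaks, 14 of them measured. It gave 6 of the 8 higher peaks of the A549-like cluster and 7 of the 9 lower peaks of the SLC30A8-high cluster. A closer base is the 37296 measured peaks within 2 kb of any gene entry. Of those, 9.18%, 12.4%, 8.18%, 8.72% and 8.19% were higher in the same order of clusters. The lower shares there were 23.5%, 12.3%, 22.4%, 15.3% and 17.5%.

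The TXNRD1 locus on chromosome 12 differed between clusters from peak to peak. The highest-count peak, chr12:104286440-104287317, covers the downstream start site shown above and had 54.4 CPM in the A549-like, 24.9 in the LCN2-high, 45.6 in the SLC30A8-high, 31.7 in the HCC827-like and 26.4 in the DHRS2-high cluster. It was lowest in the LCN2-high cluster, where the RNA was as high as in the A549-like one. The peak over the upstream start site, chr12:104215389-104216258, had 26.2, 12.1, 15.5, 14.2 and 9.20 CPM.

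Other peaks of the locus were high in some clusters and low in others. The peak chr12:104303279-104304160 had 27.8, 16.5 and 25.1 CPM in the A549-like, LCN2-high and SLC30A8-high clusters. It was near 0 in the others, at 0.532 CPM (0.0644 to 1.92) in the HCC827-like and 0.584 (0.0708 to 2.11) in the DHRS2-high cluster. These are the clusters with the 3 higher and the 2 lower levels of TXNRD1 RNA. The peak chr12:104271980-104272851 had 20.7 CPM (18.1 to 23.5) in the LCN2-high cluster and 1.33 to 8.33 CPM elsewhere. The peak chr12:104276054-104276773 was highest in the HCC827-like cluster, at 17.0 CPM (13.1 to 21.7), against 1.79 to 5.24 CPM.

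**Figure D3:**
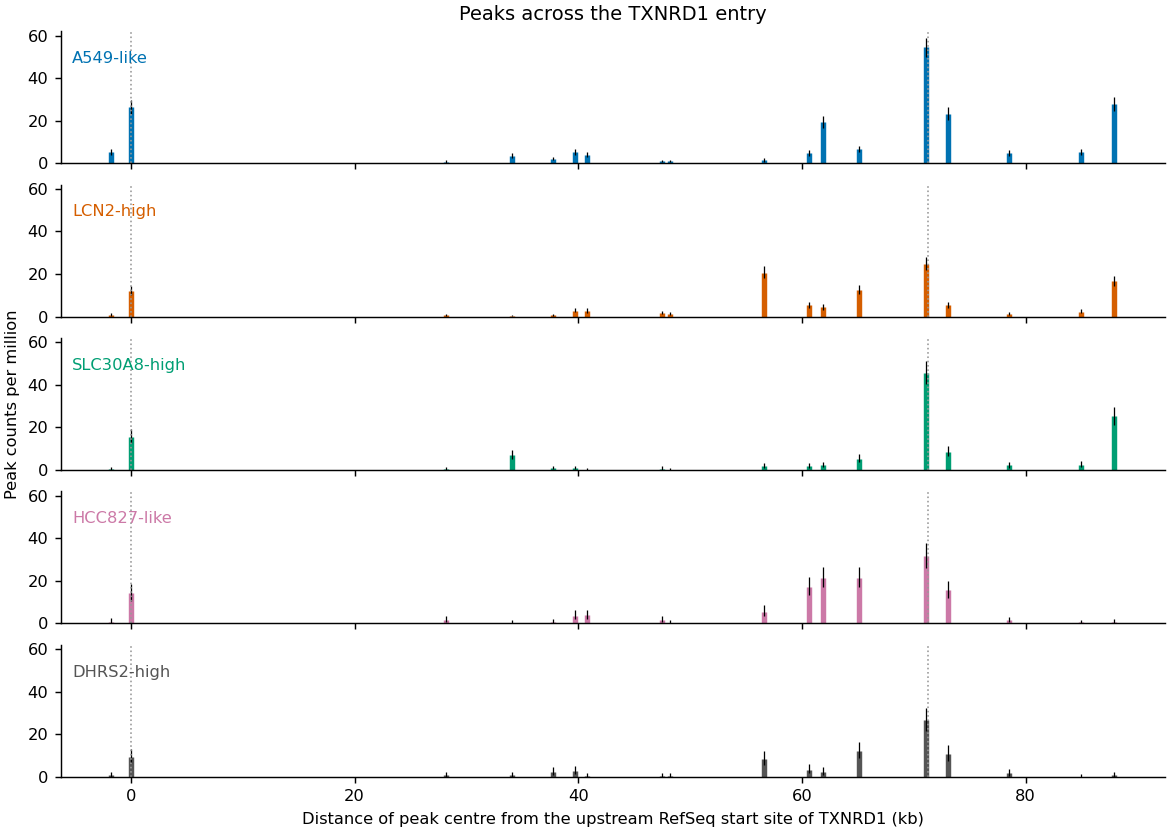
ATAC level, in CPM, of the 18 peaks within 2 kb of the TXNRD1 entry in each cluster, placed by distance in kb from the upstream start site; thin lines are 95% counting intervals and dotted lines the 2 RefSeq start sites. The peak near the end of the entry is present in the A549-like, LCN2-high and SLC30A8-high clusters, at 16.5 to 27.8 CPM, and near 0 in the other clusters.

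Within clusters, the share of barcodes with at least 1 UMI was compared after each barcode was thinned to 3000 UMIs, which left out 139, 5, 23, 17 and 12 shallower barcodes. SLC7A11 was then seen in 87.1% of A549-like barcodes (84.1% to 89.7%), 67.6% of LCN2-high, 19.0% of SLC30A8-high, 20.1% of HCC827-like and 7.80% of DHRS2-high barcodes (4.61% to 12.2%). Before thinning the shares were 89.0%, 92.7%, 36.9%, 43.1% and 27.0%. TXNRD1 was seen in 51.8% to 93.5% of thinned barcodes in every cluster. TXN was seen in 43.1%, 63.5%, 33.8%, 43.0% and 41.3%.

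The less abundant genes were seen in few barcodes even where they were highest. GPX2 was seen in 25.5% of A549-like (22.0% to 29.2%) and 5.22% of LCN2-high barcodes (3.37% to 7.66%), and 37.5% and 20.0% before thinning. In the SLC30A8-high, HCC827-like and DHRS2-high clusters, 1 of 557, 0 of 398 and 1 of 218 thinned barcodes held a UMI of GPX2. HMOX1 was seen in 9.63% of DHRS2-high (6.06% to 14.4%) and 5.60% of A549-like barcodes (3.89% to 7.78%), with overlapping intervals. GCLM was seen in 56.4% of SLC30A8-high and 47.0% of A549-like barcodes, and GCLC in 14.9% and 46.4%.

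**Figure D4:**
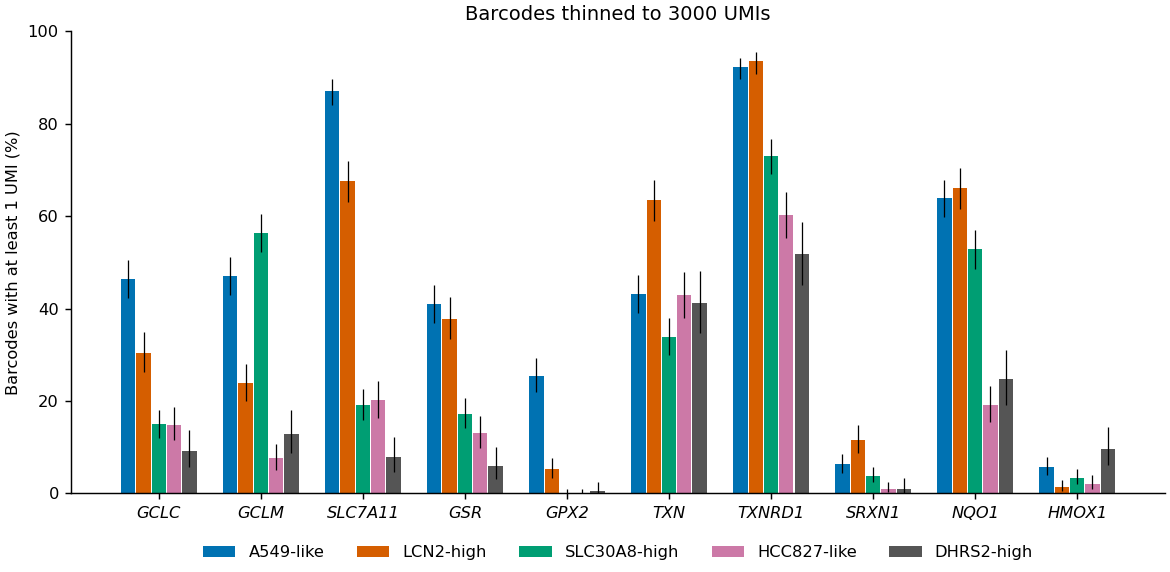
Percent of barcodes with at least 1 UMI of each gene after thinning to 3000 UMIs per barcode, by cluster; columns are shares and thin lines exact binomial 95% intervals of counting error. GCLM is the only gene seen most often in SLC30A8-high barcodes, at 56.4%.

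The proteins that set NRF2 activity were described next. NFE2L2 itself had 281, 312, 218, 167 and 129 CPM, 2.42-fold from the LCN2-high to the DHRS2-high cluster, and it was called higher or lower in none of the 5. KEAP1 had 22.2, 30.9, 48.0, 12.8 and 29.4 CPM and was lower in the HCC827-like cluster, where 9 of the 10 targets were lower. CUL3 had 264, 241, 185, 217 and 197 CPM. Transcript levels give no view of mutations in these genes.

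BACH1, the heme-sensitive repressor that competes with NRF2 for its elements, differed most among the regulators. It had 639 CPM (622 to 655) in the LCN2-high and 373 (357 to 390) in the SLC30A8-high cluster, against 131, 91.2 and 65.2 CPM in the A549-like, HCC827-like and DHRS2-high clusters. The DHRS2-high cluster, lowest in BACH1, was highest in HMOX1, and the LCN2-high cluster had the highest BACH1 beside 4.12 CPM of HMOX1. The HCC827-like cluster had 91.2 CPM of BACH1 and 4.03 CPM of HMOX1. A link of BACH1 with HMOX1 levels was not tested.

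The small MAF partners followed 3 patterns. MAFG had 105, 76.5, 97.0, 20.3 and 25.9 CPM and was lower in the HCC827-like and DHRS2-high clusters. MAFK had 48.9 CPM in the A549-like and 31.5 CPM in the SLC30A8-high cluster, against 7.02 to 12.5 CPM elsewhere. MAFF was highest in the LCN2-high cluster, at 12.03 CPM against 2.51 to 6.07 CPM. Over the whole list of 12 regulators, 1, 4, 0, 0 and 1 were higher (8.33%, 33.3%, 0%, 0% and 8.33%) and 3, 1, 0, 4 and 4 lower (25%, 8.33%, 0%, 33.3% and 33.3%), beside 12.3%, 9.82%, 12.4%, 6.83% and 7.53% higher and 18.2%, 19.7%, 20.8%, 19.6% and 16.7% lower over all genes.

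Other known NRF2 targets, 24 measured of 25 listed, were mostly higher in the A549-like cluster, mixed in the LCN2-high cluster and mostly lower in the other 3. In the A549-like cluster 14 were higher and 1 lower (58.3% and 4.17%, beside 12.3% and 18.2% of all genes), and in the LCN2-high cluster 8 and 5 (33.3% and 20.8%, beside 9.82% and 19.7%). In the SLC30A8-high cluster 1 was higher and 13 lower, in the HCC827-like cluster 0 and 21, and in the DHRS2-high cluster 0 and 17. The lower genes were 54.2%, 87.5% and 70.8% of the list there, beside 20.8%, 19.6% and 16.7% of all genes. The higher genes were 4.17%, 0% and 0% of the list, beside 12.4%, 6.83% and 7.53% of all genes. The list medians were 1.33, 0.60, -1.14, -2.12 and -1.51 on the log2 scale, to be read beside the medians of all genes above. The list was chosen with results of these data known and is no independent support.

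The members of that list with the widest spans were aldo-keto reductases, which reduce carbonyls and steroids. AKR1B10 had 809 CPM (783 to 836) in the A549-like, 27.6 in the LCN2-high and 2.80 to 10.6 CPM in the other clusters. AKR1C1 had 1001, 79.1, 20.1, 3.50 and 10.2 CPM, and AKR1C2 had 1673, 245, 19.9, 5.78 and 17.6 CPM. AKR1C3 had 710, 318, 50.2, 9.63 and 29.1 CPM. The AKR1C genes are near-identical and may share reads, so their division among themselves is uncertain. AKR1B10 separated the 2 high clusters more than any of the 10 genes did, at 29.3-fold, beside 6.38-fold for GPX2.

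Of the remaining genes of the glutathione system, 24 measured, 3, 6, 2, 0 and 2 were higher (12.5%, 25%, 8.33%, 0% and 8.33%) and 3, 3, 2, 5 and 3 lower (12.5%, 12.5%, 8.33%, 20.8% and 12.5%). The matching shares of all genes are those given with the regulators, and the list medians lay between -0.27 and 0.18. GSTM3, a glutathione transferase that shares sequence with its family, had 124 CPM (115 to 134) in the SLC30A8-high cluster and 5.03 to 14.6 CPM elsewhere. GPX4, which reduces lipid peroxides, was lowest in the A549-like cluster, at 17.6 CPM, and highest in the LCN2-high cluster, at 99.6 CPM. CHAC1, which degrades glutathione, had 10.4 CPM in the LCN2-high and 0.181 to 3.43 CPM in the other clusters. The secreted peroxidase GPX3 had 8.91 and 8.63 CPM in the LCN2-high and DHRS2-high clusters against 0.350 to 2.90 CPM.

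Of the rest of the thioredoxin system, 16 measured, 1, 3, 1, 0 and 1 were higher (6.25%, 18.8%, 6.25%, 0% and 6.25%) and 4, 2, 2, 1 and 1 lower (25%, 12.5%, 12.5%, 6.25% and 6.25%). Over all genes 12.3%, 9.82%, 12.4%, 6.83% and 7.53% were higher and 18.2%, 19.7%, 20.8%, 19.6% and 16.7% lower. Each gene is 6.25% of this list, so a share here rests on 0 to 4 genes. TXNIP, which binds and inhibits thioredoxin, had 748 CPM (730 to 766) in the LCN2-high cluster, 181 in the DHRS2-high and 9.61 to 29.2 CPM in the others, 77.8-fold from the highest to the lowest. The peroxiredoxin PRDX2 had 80.7 and 91.4 CPM in the LCN2-high and DHRS2-high clusters against 12.1 to 26.6 CPM. PRDX5 was highest in the LCN2-high cluster, at 151 CPM against 32.5 to 58.6 CPM. NXN, a thioredoxin relative, was highest in the SLC30A8-high cluster, at 253 CPM, and lowest in the LCN2-high one, at 39.4 CPM.

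SLC7A11 is also induced by ATF4, the transcription factor of amino acid shortage, so 11 targets of ATF4 were described beside it, of which CHAC1 and SLC3A2 are also in the glutathione list. In the LCN2-high cluster 7 were higher and 0 lower (63.6% and 0%, beside 9.82% and 19.7% of all genes), with a median log2 ratio of 1.61. In the A549-like cluster 1 was higher and 1 lower, with a median of 0.27. Each is 9.09% of the list, near the 12.3% higher and under the 18.2% lower of all genes. The SLC30A8-high, HCC827-like and DHRS2-high clusters had 0 higher, beside 12.4%, 6.83% and 7.53% of all genes. They had 6, 1 and 7 lower (54.5%, 9.09% and 63.6%, beside 20.8%, 19.6% and 16.7%). PSAT1, an enzyme of serine synthesis, had 125, 270, 20.1, 52.5 and 35.5 CPM. TRIB3 had 33.6, 90.1, 7.98, 31.7 and 23.0 CPM, and DDIT4 had 81.6, 131, 12.1, 53.4 and 22.1 CPM. ASNS, asparagine synthetase, was highest in the A549-like cluster, at 10.97 CPM, from 48 UMIs. ATF4 itself had 92.7 CPM in the LCN2-high and 34.1 to 46.0 CPM in the other clusters.

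**Figure D5:**
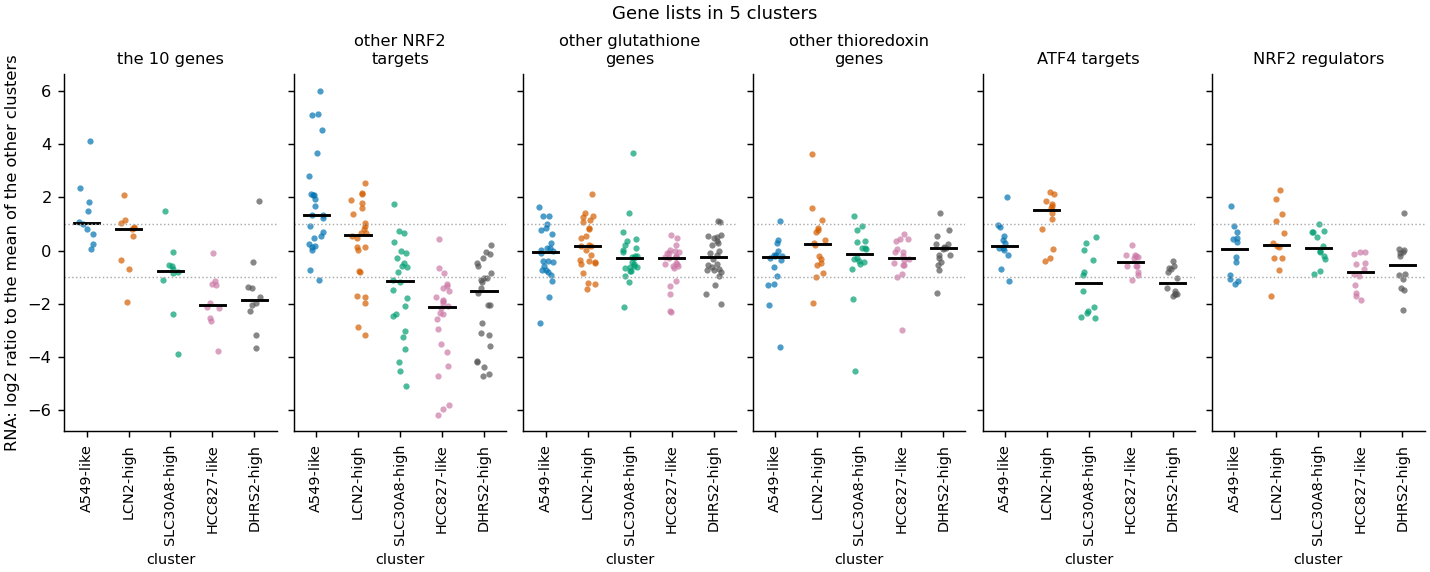
Log2 ratio of each measured gene to the mean of the other 4 clusters, by list and cluster; points are genes, black bars list medians and dotted lines the 2-fold limits. The other NRF2 targets have medians of 1.33 in the A549-like and -2.12 in the HCC827-like cluster, and the panel of ATF4 targets, which here holds ATF4 itself as a further gene, has its highest median, 1.52, in the LCN2-high cluster.

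Likeness of pattern was measured as the Euclidean distance between centred log2 levels over the 5 clusters, among the 11218 genes with a mean of at least 10 CPM. GCLC and GSR lay near each other, at a distance of 0.49, and ETV4, at 0.44, was the only gene nearer to GCLC. For GSR the second was CEBPG, at 0.51. NQO1 was nearest to OSGIN1 (0.43), itself a listed NRF2 target, and TXNRD1 to ABCC1 (0.38), the glutathione-conjugate pump. NQO1 and SRXN1 shared PLA2R1 among their nearest, and PLXND1 was nearest to SRXN1 (0.48). TXN, with its flat profile, lay nearest to SRP68 (0.14) and YARS (0.15), and PTPRJ was second for TXNRD1 (0.50).

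The other genes had less close neighbours. GCLM was nearest to WTIP (0.75) and CACNB4 (0.76), SLC7A11 to RNF217-AS1 (0.85) and FRMD3 (0.94), and GPX2 to LDLRAD4 (0.80) and CA8 (0.84). HMOX1 was nearest to SEMA3C (0.60), which had 386, 124, 260, 113 and 662 CPM, and to PRKCA-AS1 (0.61). Distances over 5 points from the same libraries are descriptions and carry no test.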

How the data were processed

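RNA and ATAC were measured on the same 3298 barcodes. Per the submitters' processing notes, the authors used Cell Ranger ARC 2.0.0 (genome GRCh38) for the joint matrix. The deposited values, per the file headers, are whole-number counts, UMIs per gene and counts per peak, with no normalisation. The other deposited values, used as positions only, are starts and ends of genes and peaks per the file headers. The peak caller is not given in the sources used here, nor is strand use, so antisense genes cannot be told apart.

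Barcodes with at least 1000 UMIs, 500 genes and 1000 peak counts and at most 20% mitochondrial UMIs were kept (2804). The 63 highest Scrublet scores were removed, since its automatic threshold marked 1 barcode, which left 2741. ATAC counts were weighted by TF-IDF, and 30 components less 1 that tracked depth were clustered with Leiden (scanpy 1.11.5, leidenalg 0.10.2). Clusters by RNA agreed for 2672 barcodes (adjusted Rand index 0.946). A mixture fit to 10757 cluster-specific peaks left out 323 barcodes whose largest share was under 0.8 or in another cluster. This step was added after the data were seen and departs from the plan, which summed all barcodes of a cluster. The 2418 others held 27711745 UMIs and 69518168 peak counts. An RNA fit also assigned 2317 of these 2418 to a single line, all in the same cluster. The rest were kept though the RNA fit did not assign them so. Of the 323 barcodes left out, 261 were mixed by the RNA fit too.

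Counts were summed per cluster and scaled to 1000000 (CPM), and ratios used a pseudocount of 1 CPM. Peak intervals used counts divided by 2, since 83.3% of entries are even. The calculation was tested on simulated data. TMM factors came from edgeR 4.0.16, for an alternative only.

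The 10 genes and all lists were chosen with earlier results of these data known. Named genes are the 10, 8 regulators (NFE2L2, KEAP1, CUL3, BACH1, MAFF, MAFG, MAFK and ATF4), the 4 widest-ranging genes of each other list, the 2 nearest in pattern to each of the 10, and the nearest and highest-count peak of each. TXNRD1 peaks outside this rule, the GCLC start-site peak and the markers were chosen after their values were seen. RefSeq promoters were not used here for SLC7A11, HMOX1 and GSR.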

Additional observations from a re-analysis of the deposited data

How the results depend on the processing

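Of 50 values (10 genes in 5 clusters), 31 were at least 2-fold from the mean of the other clusters, and 0 of those 31 changed sign under the 15 alternatives tried. Among the other 19, GPX2 in the LCN2-high cluster went from -0.70 to 2.85 with the median of the other clusters as the base, and the sign of 3 further genes (TXN, NQO1 and SRXN1) turned in at least 1 cluster and setting. The 31 calls all held with RNA clusters, matched barcodes only, no quality limits on barcodes and no doublet removal by score. They also held with equal weight per barcode and with totals without mitochondrial genes. Mixed barcodes were left out in all of these settings. The other 9 settings moved calls. With the median of the other clusters as the base, 9 genes were higher in the A549-like (5 with the mean) and 7 in the LCN2-high cluster (3 with the mean), while GCLC was no longer lower in the SLC30A8-high and HCC827-like clusters. TMM factors, which moved the median over all genes, on the log2 scale, by -0.13 in the A549-like and by 0.18 in the HCC827-like cluster, gave 5 higher genes in the LCN2-high and 4 in the A549-like cluster (TXNRD1 lost), 8 lower in the HCC827-like cluster (GCLC lost) and 14 higher peaks in the A549-like cluster (8 otherwise). With mixed barcodes kept, a choice tried after the data were seen, the LCN2-high cluster had 1 gene higher and 0 lower. Of 31 peaks then measured, 1 was lower there (4 of 29 otherwise). NQO1 was also higher in the A549-like cluster, and the calls of GCLC in the SLC30A8-high and of SRXN1 and NQO1 in the DHRS2-high cluster were lost. A largest share of at least 0.9 added GCLM in the A549-like cluster. Barcodes under 2% mitochondrial UMIs gave 0 higher and 2 lower genes in the LCN2-high, 7 higher in the A549-like and 7 lower in the HCC827-like cluster. Barcodes with at least 2% gave 5 higher genes in the LCN2-high and 6 in the A549-like cluster. Only 22 peaks were measured in them, against 29 in the main values. Of these 22, 5 were higher and 2 lower in the A549-like cluster, and 2 were lower in the HCC827-like cluster (5 of 29 otherwise). Barcodes at or below the median UMIs of their cluster gave 0 higher genes in the DHRS2-high cluster, where HMOX1 was 17.1 CPM, and lost TXNRD1 in the A549-like and HMOX1 in the HCC827-like cluster. Barcodes above it added GCLM in the A549-like and HMOX1, lower, in the SLC30A8-high cluster. A pseudocount of 10 CPM lost GCLC in the SLC30A8-high and SRXN1 in the DHRS2-high cluster. Peaks within 10 kb, 43 measured against 29 within 2 kb, gave 14 higher and 2 lower in the A549-like and 2 higher in the LCN2-high cluster. They gave 8 lower in the HCC827-like and 1 higher in the DHRS2-high cluster. Ratios to the peaks 2 kb to 500 kb away gave 2 lower in the A549-like and 4 lower in the DHRS2-high cluster (8 otherwise), and binarised counts gave 2 lower in the LCN2-high cluster. The gene and peak counts of these settings have no share of all genes or peaks under the same setting beside them. The cause of these changes was not tested. No paired analysis was possible because each readout has 1 library and each line 1 culture. Depth limited HMOX1, SRXN1 and GPX2 most, at 330, 633 and 649 UMIs, and 3 UMIs correspond to 0.334 to 0.959 CPM in a cluster.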

Other observations

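Of 12 genes of heme and iron handling, 3, 3, 0, 0 and 0 were higher and 3, 0, 3, 4 and 5 lower in the A549-like, LCN2-high, SLC30A8-high, HCC827-like and DHRS2-high clusters, beside 12.3%, 9.82%, 12.4%, 6.83% and 7.53% higher and 18.2%, 19.7%, 20.8%, 19.6% and 16.7% lower over all genes. FTH1, FTL, BLVRA and BLVRB are also in the list of other NRF2 targets, and without these 4 the counts were 3, 0, 0, 0 and 0 higher and 2, 0, 1, 1 and 3 lower of 8. The biliverdin reductases, which act after heme oxygenase, did not share the order of HMOX1. BLVRB had 247.5 CPM in the LCN2-high cluster and 28.1 CPM in the DHRS2-high cluster, while HMOX1 had 4.12 and 38.7 CPM there. BLVRA had 52.8, 61.9, 17.6, 7.70 and 40.6 CPM. The iron exporter SLC40A1 had 26.3 CPM in the A549-like and 6.13 CPM in the LCN2-high cluster, and 0 UMIs in the SLC30A8-high cluster, where 3 UMIs would be 0.544 CPM. The heme transporter SLC48A1 had 25.1 CPM in the A549-like cluster and 2.24 CPM in the DHRS2-high cluster, from 7 UMIs.

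The paralogues of TXNRD1 did not share its pattern. TXNRD2, the mitochondrial thioredoxin reductase, had 14.4, 8.47, 24.5, 15.8 and 17.3 CPM, and TXNRD3 had 26.5, 23.5, 27.4, 27.8 and 27.8 CPM. Both were chosen after their values were seen.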
